A study of Mus musculus with 28 samples.

Results

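Whole kidneys labelled FcR2b-/- were compared with whole kidneys labelled WT across all genes listed in the deposited kidney table. The comparison used 8 of the 28 samples of the series, 4 FcR2b-/- and 4 WT libraries, chosen by their tissue and genotype labels. All came from female littermates on the C57BL/6 strain at 7 to 9 months of age, and no agent was given. The kidneys were perfused before whole-organ RNA was taken, polyadenylated RNA was made into TruSeq libraries, and single reads of 50 bases were collected on a HiSeq instrument. For 2 side comparisons, 4 kidneys labelled FcR2b-/- Rhbdf2-/- were set against 4 labelled Rhbdf2-/-, and 3 libraries of kidney macrophages labelled FcR2b-/- against 3 labelled WT. The labels leave unsaid whether the libraries of a group are separate mice, and a p-value here speaks only for the spread of these samples. Each kidney genotype had a sequencing lane of its own, and genotype and lane cannot be told apart.

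Fcgr2b encodes the inhibitory receptor for IgG, which dampens B cell and myeloid activation by immune complexes. Loss of the receptor on the C57BL/6 background is known for anti-nuclear antibodies and immune complex glomerulonephritis. In such a kidney, complexes engage activating Fc receptors and complement in the glomerulus, and the tubules downstream can lose their transport programme, turn on injury genes and become surrounded by leukocytes and scar matrix.

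Values are CPM, the authors' read counts scaled by library. Summed over the listed genes they came to 823475 to 985291 in FcR2b-/- libraries and 1028980 to 1067008 in WT libraries. The authors' scaling was therefore not by total reads in listed genes alone. Reads in listed genes numbered 29014999 to 35636205 in FcR2b-/- libraries and 33847079 to 36902380 in WT libraries. The worth of 3 reads, used as a floor, was 0.0696 to 0.102 CPM in FcR2b-/- and 0.0859 to 0.0912 CPM in WT libraries. The kidney genes Umod, Slc12a1, Lrp2, Slc34a1 and Aqp2 had reads far above this floor in all 8 libraries. Of 21 markers of adrenal, fat, muscle, liver, urothelium, lymphoid tissue and blood 12 had a value. Their summed level was 126 to 291 CPM in FcR2b-/- and 250 to 266 CPM in WT kidney. The muscle genes Ckm and Acta1 and the lymphoid gene Cr2 had no value and are not in this sum. Mitochondrially encoded genes took 14.5% of the reads in library FcR2bko_594 and 5.87% in FcR2bko_591, with a mean of 9.04 ± 3.89% in FcR2b-/- and 11 ± 0.634% in WT kidney (SD, n = 4 each; exact permutation test, two-sided p = 0.343, the smallest possible being 0.0286). Without FcR2bko_594 the difference of -2 percentage points became -3.83, with 5.87 to 9.06% in the other FcR2b-/- libraries and 10.4 to 11.8% in WT libraries and no overlap (exact permutation p = 0.0571, the smallest that 3 against 4 libraries can give). The difference was -1.23 without FcR2bko_21 (exact permutation p = 0.629), -2.01 without FcR2bko_398 (0.343) and -0.945 without FcR2bko_591 (0.686).

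The targeted gene was read first. Fcgr2b, at chr1:170960557-170976547 in mm10, had 27.9, 23.4, 34.2 and 31.4 CPM in FcR2b-/- libraries FcR2bko_21, FcR2bko_398, FcR2bko_591 and FcR2bko_594, against 34.3, 29.3, 34.5 and 35.8 CPM in WT libraries WT_346, WT_356, WT_388 and WT_550. Libraries are given in this order throughout. The groups overlapped, and the log2 change was -0.20 ± 0.17 (SE; limma adjusted p = 0.333). The deleted exon is not named in the labels. Reads over the whole gene therefore give no check of them, and libraries are called by their label. Rhbdf2, which encodes iRhom2, had 37.1, 25, 32.3 and 36.5 CPM in FcR2b-/- and 12.9 CPM in each WT library. It rose by 1.26 ± 0.17 (limma adjusted p = 2.51e-05), with every FcR2b-/- library above all WT libraries.

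Between FcR2b-/- and WT kidney 7422 of 12315 genes changed (60.3%; limma-trend on log2(CPM+1), Benjamini-Hochberg adjusted p below 0.05). Of these 3627 were higher in FcR2b-/- (29.5% of genes tested) and 3795 lower (30.8%), and the median over all genes was -0.01. Changes of at least 1 on the log2 scale numbered 1067 higher (8.66%) and 589 lower (4.78%), and changes of at least 4 numbered 9 in each direction. In 6365 genes (51.7%) the CPM ranges of the groups did not overlap. Scaling each library by its total reads in listed genes, chosen after seeing the data, moved the median of all genes to 0.19 and the split to 5383 higher and 2129 lower of 7512. Changes below are differences of mean log2(CPM+1), a scale that shrinks those of genes with few reads. The shares of 29.5% and 30.8% are the background for counts of list members in the main fit of this comparison. List counts under total-read scaling have another background, the 5383 higher and 2129 lower of 12315 genes under that scaling.

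**Figure D1:**
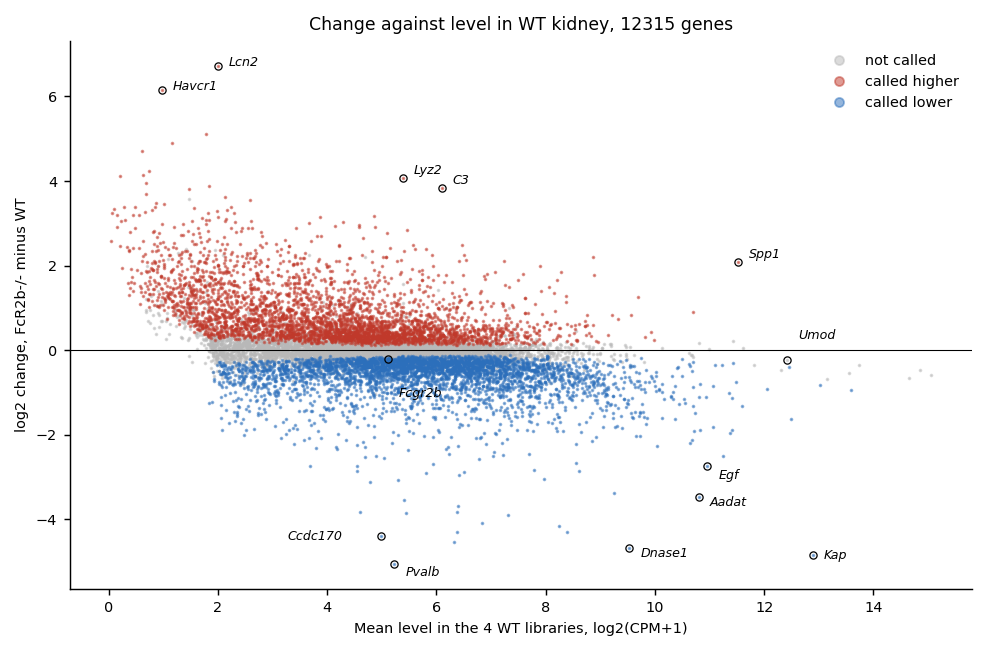
Each point is one of 12315 genes, with the mean level in the 4 WT libraries, as log2(CPM+1), on the x axis and the log2 change, FcR2b-/- minus WT, on the y axis; colours mark the 3627 genes called higher and the 3795 called lower. Rises gather at low WT levels and falls at high ones, and Lcn2 at 6.73 and Pvalb at -5.05 lie at the edges.

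The direction of the calls varied with the level in WT kidney. Among the 3079 genes with the lowest mean WT level 47.3% were higher and 13.6% lower in FcR2b-/- kidney, and among the 3079 with the highest 14.3% were higher and 52.9% lower. The WT level is itself a term of the change, so these shares are a description. Genes called higher took 21.9 to 29.9% of the reads in FcR2b-/- libraries and 12 to 13.1% in WT libraries. They were called on these same libraries, so the direction of this difference was fixed in advance. Calls were spread over the genome. Chromosomes 1 to 19 and X had 56.6 to 64.9% of their genes called, and 43 of the 66 genes within 5 Mb of Fcgr2b were called (65.2%), 22 higher and 21 lower, with a median of 0.08.

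Genes of tubular injury and repair held the largest single rises. Of 25 listed members 22 were higher and 1 lower in FcR2b-/- kidney, with a median of 2.19. The lower one was Itgb6, an epithelial integrin chain that activates TGF-beta, at -1.18, and 2 were lower without FcR2bko_591 or WT_356. Lcn2, which encodes the iron-binding protein NGAL secreted by stressed tubule cells, lies at chr2:32384632-32387797. It had 365, 248, 900 and 319 CPM in FcR2b-/- libraries, against 2.3, 5.41, 1.89 and 2.35 CPM in WT libraries. The lowest FcR2b-/- library was far above the highest WT library, and the gene rose by 6.73 ± 0.62 (limma adjusted p = 8.48e-07). Havcr1, at chr11:46735079-46779578, encodes KIM-1, a phagocytic receptor that injured proximal tubule cells display. It had 304, 50.1, 187 and 104 CPM in FcR2b-/-, against 0.264, 0.697, 0.744 and 2.14 CPM in WT kidney. The spread within FcR2b-/- was wide, with FcR2bko_21 highest and FcR2bko_398 lowest, and the change was 6.16 ± 0.71 (limma adjusted p = 5.8e-06).

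Other injury genes rose in every FcR2b-/- library as well. Spp1, the secreted phosphoprotein osteopontin, had 15202, 8203, 14910 and 12748 CPM in FcR2b-/-, against 3156, 2953, 2800 and 2796 CPM in WT kidney. The WT libraries lay close together, and the change was 2.09 ± 0.21. Mmp7, a secreted protease of injured tubules, had 4.49, 8.82, 20.6 and 8.38 CPM in FcR2b-/- and 0.0587 to 0.229 CPM in WT kidney, where several values were at or under the 3-read floor, and it rose by 3.20 ± 0.37. Krt20, a keratin of injured tubule cells, had 34.3, 16.6, 25.6 and 9.36 CPM in FcR2b-/- and 0.332 to 1.18 CPM in WT libraries, a change of 3.69 ± 0.36. Gdf15, a stress-induced hormone of the TGF-beta family, had 28.3, 41.2, 70.2 and 51.7 CPM in FcR2b-/- and 3.15 to 4.56 CPM in WT libraries and rose by 3.25 ± 0.30. Of 9 simple epithelial keratins 6 rose and 0 fell, with a median of 1.19. Among the injury markers, WT_356 stood above the other WT libraries, with a mean log2(CPM+1) over the list of 5.13, against 4.77 to 4.82.

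**Figure D2:**
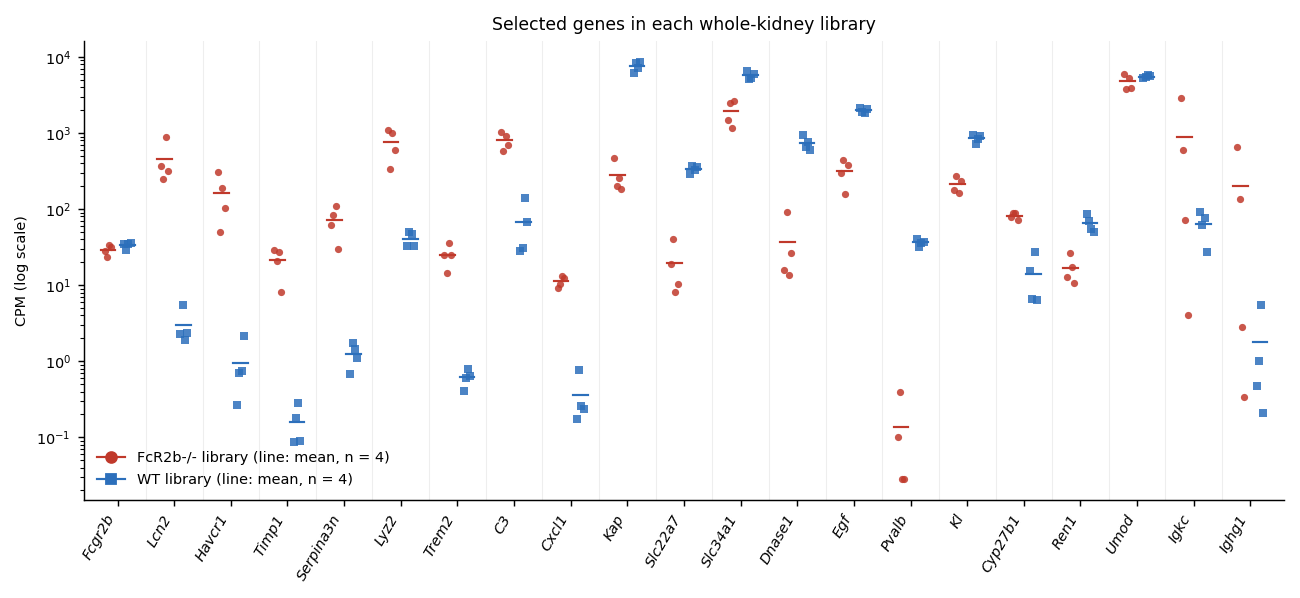
CPM of single genes on a log axis, with FcR2b-/- libraries left of WT libraries and one point a library. Lcn2 and Havcr1 sit higher and Kap, Pvalb and Egf lower in all 4 FcR2b-/- libraries, while Fcgr2b and Igkc overlap between the groups.

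The proximal tubule, the segment that reabsorbs most filtered solutes, showed the opposite picture. Of 29 measured members of its identity list 26 were lower and 1 higher in FcR2b-/- kidney, with a median of -1.24. In whole kidney, fewer cells of a type and less RNA per cell cannot be told apart. Kap, the androgen-regulated kidney protein gene at chr6:133849854-133853667, had 473, 204, 258 and 183 CPM in FcR2b-/- libraries, against 6068, 8405, 7161 and 8695 CPM in WT libraries. It took 0.0185 to 0.0541% of the reads in FcR2b-/- and 0.569 to 0.836% in WT kidney and fell by 4.85 ± 0.30 on the log2 scale (limma adjusted p = 4.25e-08). Slc34a1, the sodium phosphate cotransporter of the brush border, had 1498, 2504, 1176 and 2674 CPM in FcR2b-/- and 6508, 5156, 5360 and 5939 CPM in WT kidney, a change of -1.62 ± 0.21. Lrp2, the endocytic receptor megalin, had 636, 1030, 425 and 1012 CPM in FcR2b-/- and 2618, 2330, 2574 and 3306 CPM in WT kidney, a change of -1.88 ± 0.24. In both genes FcR2bko_21 and FcR2bko_591 were the lowest libraries.

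Transporters and enzymes of organic solutes were among the deepest falls. Slc22a7, an organic anion transporter, had 19.2, 40, 8.25 and 10.3 CPM in FcR2b-/- and 289, 366, 328 and 359 CPM in WT kidney, a change of -4.29 ± 0.32 (limma adjusted p = 1.54e-07). Slc22a19, of the same family, changed by -4.17 ± 0.29, Akr1c14 and Akr1c18, of the aldo-keto reductases, by -4.30 and -3.89, and Cyp2d12, a cytochrome P450, by -4.54. These genes belong to families of similar sequence, whose reads could be shared between copies. Dnase1, the secreted nuclease that degrades extracellular DNA, had 15.9, 91.8, 13.8 and 26.2 CPM in FcR2b-/- and 949, 646, 761 and 606 CPM in WT kidney. It fell by 4.69 ± 0.43, and FcR2bko_398 kept the highest FcR2b-/- level. Of all 266 listed solute carriers 144 were lower and 46 higher, with a median of -0.37, and 112 were lower and 63 higher under total-read scaling. Their share of reads was 2.46 to 3.19% in FcR2b-/- and 3.91 to 4.16% in WT libraries. Slc13a1, the sulphate transporter, went the other way within the proximal tubule list, with 584 to 785 CPM in FcR2b-/-, against 343 to 513 CPM in WT kidney (0.68 ± 0.14; limma adjusted p = 0.000838).

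Energy and small-molecule metabolism fell with the tubule genes. All 11 called genes among 12 measured for gluconeogenesis, creatine and inositol synthesis were lower, with a median of -1.26. Pck1, the enzyme that commits to gluconeogenesis, had 402, 911, 527 and 1056 CPM in FcR2b-/- and 3478, 2303, 2306 and 2480 CPM in WT kidney (-1.95 ± 0.33). Gatm, which catalyses the first step of creatine synthesis, had 556, 582, 249 and 389 CPM in FcR2b-/- and 2976, 2218, 2209 and 2258 CPM in WT kidney (-2.51 ± 0.22). The fall was present in every FcR2b-/- library for both. Of 30 fatty acid oxidation and peroxisome genes 24 were lower and 0 higher, with a median of -0.74. Acadm, the medium-chain acyl-CoA dehydrogenase, had 309, 542, 276 and 401 CPM in FcR2b-/- and 1327, 1628, 1560 and 2048 CPM in WT kidney (-2.13 ± 0.21). Of 10 measured kynurenine and NAD enzymes 7 were lower and 1 higher, with a median of -0.90. The higher one was Nnmt, which methylates nicotinamide, at 1.32.

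Nuclear genes of the respiratory chain were lower in 63 of 78 cases, with a median of -0.49. Under total-read scaling 46 were lower, with a median of -0.28. Ndufs1 of complex I changed by -1.34, Sdha of complex II by -1.10 and Atp5b of the ATP synthase by -0.93. Of the 13 mitochondrially encoded genes 3 were lower, with a median of -0.53, and 12 were lower without FcR2bko_594, the library with the high mitochondrial share. The count was 2 without FcR2bko_21, FcR2bko_591 or WT_550, and 1 in a fit on the 2 groups alone. Cytosolic ribosomal protein genes went the other way, with 61 of 71 higher, 2 lower and a median of 0.48, and 1 lower without FcR2bko_21 or WT_346. Rpl10a rose by 1.01 and Rpl12 by 0.85. Ribosomal protein genes took 0.975 to 1.2% of the reads in FcR2b-/- and 0.633 to 0.685% in WT libraries.

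The transcription factors of the nephron moved little as a group. Of 24 measured 8 were lower and 4 higher, with a median of -0.09, and this sign turned to 0.13 under total-read scaling, with 6 lower and 8 higher. Without FcR2bko_21 or WT_356 the number higher became 7. Hnf4a, the nuclear receptor that drives proximal tubule genes, had 448, 782, 403 and 692 CPM in FcR2b-/- and 1217, 1029, 1042 and 1185 CPM in WT kidney. It fell by 0.99 ± 0.17 (limma adjusted p = 0.000206), again least in FcR2bko_398 and FcR2bko_594. The higher ones were Pax8, a kidney lineage factor, at 0.63 and the epithelial factors Grhl2, Elf3 and Ehf at 0.45, 0.97 and 1.08.

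Further down the nephron the segments differed in their counts. In the thick ascending limb, which dilutes the urine, 7 of 14 measured genes were lower and 2 higher, with a median of -0.30. The higher ones were Cldn16 and Cldn19, claudins of the paracellular magnesium and calcium path, at 1.07 and 0.90. Umod, which encodes the urinary protein uromodulin, had 6060, 3835, 5221 and 3954 CPM in FcR2b-/- and 5246, 5379, 5717 and 5561 CPM in WT kidney, with overlapping groups and a change of -0.23 ± 0.16 (limma adjusted p = 0.24). Egf, the growth factor precursor of the ascending limb and distal tubule, had 294, 437, 157 and 380 CPM in FcR2b-/- and 2147, 1891, 1857 and 2065 CPM in WT kidney. It fell by 2.74 ± 0.24 with no overlap, so Umod and Egf did not move alike.

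All 16 measured genes of the distal convoluted and connecting tubule were called, 14 lower and 2 higher, with a median of -0.94. Slc12a3, the thiazide-sensitive sodium chloride cotransporter, had 298, 336, 257 and 281 CPM in FcR2b-/- and 987, 612, 959 and 993 CPM in WT kidney (-1.57 ± 0.24; limma adjusted p = 6.37e-05). Klhl3, the ubiquitin ligase adaptor that restrains WNK kinases, had 12.3, 15.9, 13 and 8.38 CPM in FcR2b-/- and 62.7, 41.7, 54.6 and 54.5 CPM in WT kidney (-2.04 ± 0.22). Pvalb, which binds calcium in the first stretch of the distal convoluted tubule, had 0.102 and 0.396 CPM in FcR2bko_21 and FcR2bko_398 and no read in FcR2bko_591 and FcR2bko_594, against 40.4, 31.9, 36.2 and 37.3 CPM in WT libraries. It changed by -5.05 ± 0.44 on the log2(CPM+1) scale (limma adjusted p = 5.49e-07), so the size of this fall depends on the pseudocount. The rises were Trpv5, the apical calcium channel, at 0.76 and Stk39, the kinase that activates the cotransporter, at 0.29, but both overlapped between the groups, and 0 genes of the list were higher without FcR2bko_398, FcR2bko_591 or WT_388.

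The collecting duct, which sets final water and acid excretion, changed less evenly. Among 12 measured principal cell genes 3 were higher and 2 lower, with a median of 0.28, and total-read scaling gave 6 higher and 1 lower. Without FcR2bko_21, FcR2bko_591, FcR2bko_594 or WT_388, 1 was lower. Aqp2, the vasopressin-regulated water channel, had 542, 427, 359 and 458 CPM in FcR2b-/- and 300, 755, 208 and 229 CPM in WT kidney. WT_356 was the highest of the 8, and the change of 0.45 did not pass with all libraries (limma adjusted p = 0.276) but did without WT_356 (0.0126). Aqp4, a basolateral water channel of the same cells, had 35.6, 31.3, 27.2 and 11.6 CPM in FcR2b-/- and 88.1, 192, 93.2 and 74.3 CPM in WT kidney, a change of -2.05 ± 0.32. Of 15 measured intercalated cell genes 8 were lower and 2 higher, with a median of -0.57, the higher ones being the water channel Aqp6 at 0.54 and the carbonic anhydrase Car15 at 0.82.

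Hormone genes of the kidney fell together in part. Of 12 measured renin-angiotensin genes 10 were lower and 0 higher, with a median of -0.93. Ren1, which encodes renin, had 12.7, 26.4, 17.6 and 10.8 CPM in FcR2b-/- and 86, 70.2, 54.6 and 49.9 CPM in WT kidney (-1.93 ± 0.32; limma adjusted p = 0.000142). Ace, the angiotensin-converting enzyme of the brush border and endothelium, had 36.4, 49.9, 20.9 and 40.3 CPM in FcR2b-/- and 136, 168, 166 and 155 CPM in WT kidney (-2.11 ± 0.18). Both were separated between the groups. In calcium, phosphate and vitamin D handling 6 of 13 genes were lower and 3 higher, with 5 higher without FcR2bko_594 or under total-read scaling and 1 higher without FcR2bko_398. Kl, the FGF23 co-receptor Klotho, had 176, 274, 163 and 233 CPM in FcR2b-/- and 934, 722, 836 and 908 CPM in WT kidney and fell by 2.03 ± 0.15. Cyp27b1, which makes active vitamin D, had 79.6, 88.6, 88.5 and 71 CPM in FcR2b-/- and 15.2, 6.65, 27.3 and 6.29 CPM in WT kidney and rose by 2.71 ± 0.52 (limma adjusted p = 0.000426). Cyp24a1, which breaks active vitamin D down, had 134, 298, 73.7 and 148 CPM in FcR2b-/- and 26.1, 83.2, 38.7 and 12.4 CPM in WT kidney. The ranges overlapped, and the call of 2.13 ± 0.78 (limma adjusted p = 0.0283) was lost without WT_346 (0.0624), WT_550 (0.0927) or FcR2bko_398 (0.0799).

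In the glomerulus, podocyte genes divided by library. Of 19 measured genes 5 were lower and 3 higher, with a median of -0.26. Among the higher ones were the slit diaphragm adaptor Cd2ap at 0.50 and Kirrel, a partner of nephrin, at 0.96. Nphs1, which encodes nephrin of the slit diaphragm, had 44.5, 37.5, 17.1 and 11.7 CPM in FcR2b-/- and 56.6, 45.2, 48.9 and 58.1 CPM in WT kidney (-1.07 ± 0.30; limma adjusted p = 0.00596). FcR2bko_591 and FcR2bko_594 were the lowest libraries. The mean over the podocyte list was 4.85 in FcR2bko_594 and 5.56 to 5.89 in the other FcR2b-/- libraries, against 5.69 to 5.79 in WT libraries. Without FcR2bko_21 or FcR2bko_398, 8 podocyte genes were lower, and under total-read scaling 3 were. Endothelial genes were higher in 12 of 20 cases and lower in 2, with a median of 0.45. The lower ones were Kdr, the VEGF receptor of endothelium, at -0.57 and Ehd3 at -0.45, whose call was lost in 5 alternatives. Vcam1, which lets leukocytes adhere to vessels and is also displayed by injured tubules, had 242, 83.8, 153 and 88.6 CPM in FcR2b-/- and 13.3, 14.9, 15.4 and 11 CPM in WT kidney and rose by 3.16 ± 0.39.

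Among matrix and myofibroblast genes 33 of 36 rose and 0 fell, with a median of 1.98. Col1a1, the chain of fibrillar collagen I, had 258, 129, 265 and 105 CPM in FcR2b-/- and 16, 20.6, 24.8 and 30.4 CPM in WT kidney (2.91 ± 0.56; limma adjusted p = 0.000463). Timp1, an inhibitor of metalloproteinases, had 29.4, 20.8, 26.9 and 8.21 CPM in FcR2b-/- and 0.0875 to 0.286 CPM in WT libraries (4.13 ± 0.37). FcR2bko_594 was the lowest FcR2b-/- library in both. Ltbp2, a fibrillin-related matrix protein, had 64.5, 29.9, 42.2 and 28.2 CPM in FcR2b-/- and 0.363 to 0.83 CPM in WT libraries, a change of 4.71 ± 0.48. Lox, which cross-links collagen, had 61.1, 52.9, 67.6 and 15.5 CPM in FcR2b-/- and 2.98 to 4.37 CPM in WT libraries, a change of 3.31 ± 0.35.

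Basement membrane genes were divided, with 10 of 22 higher and 6 lower (11 higher and 3 lower under total-read scaling) and a median of 0.45. The collagen IV chains show the division. Col4a1, of the network found in most basement membranes, had 603, 393, 613 and 303 CPM in FcR2b-/- and 176, 195, 186 and 225 CPM in WT kidney and rose by 1.23 ± 0.24 (limma adjusted p = 0.000503). Col4a3, of the network of the mature glomerular membrane, had 66.1, 65.6, 67.2 and 28.6 CPM in FcR2b-/- and 154, 160, 162 and 157 CPM in WT kidney and fell by 1.54 ± 0.21. Both sets of values were separated between the groups.

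**Figure D3:**
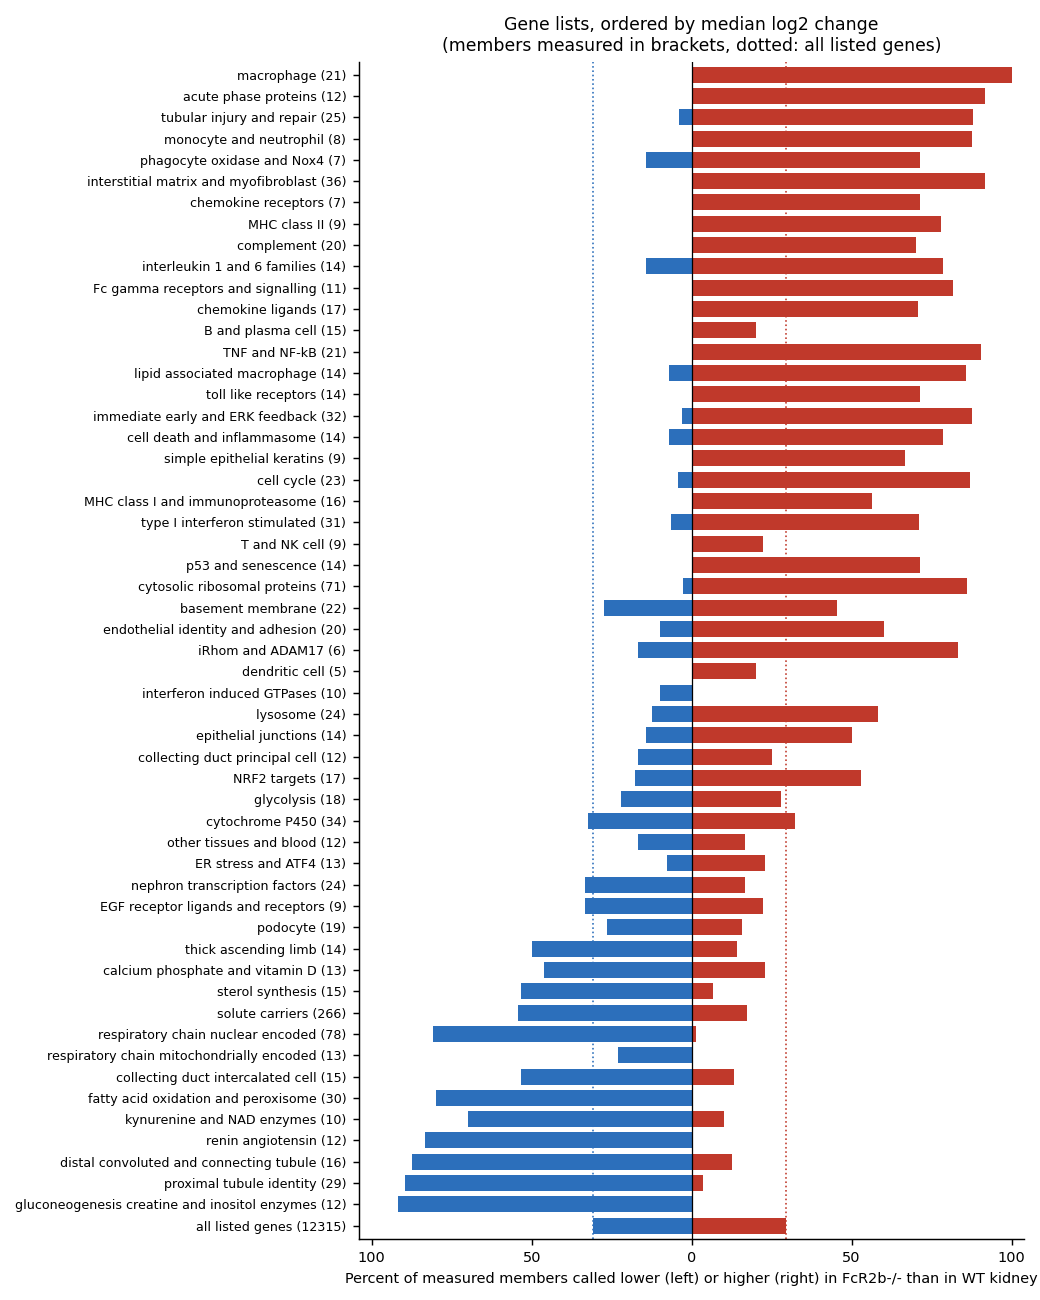
For each gene list, bars give the percent of measured members called higher (to the right) and lower (to the left) in FcR2b-/- against WT kidney, with the number measured in brackets; the last bar gives all 12315 genes, 29.5% higher and 30.8% lower. Macrophage, matrix, injury and acute phase lists lie almost wholly to the right, and proximal tubule, gluconeogenesis, fatty acid and distal tubule lists almost wholly to the left.

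Acute phase proteins, secreted by liver and by stressed epithelium, were higher in 11 of 12 measured cases and lower in 0, with a median of 2.71. Serpina3n, a protease inhibitor, had 61.8, 83.6, 110 and 29.9 CPM in FcR2b-/- and 0.677, 1.73, 1.43 and 1.11 CPM in WT kidney (4.89 ± 0.44). Hp, which encodes haptoglobin, had 79.1, 17.1, 18.5 and 72.9 CPM in FcR2b-/- and 1.21, 1.21, 1.55 and 3.19 CPM in WT kidney (3.82 ± 0.53). Its high libraries, FcR2bko_21 and FcR2bko_594, were not those of Serpina3n. Fgg, the gamma chain of fibrinogen, had 110, 151, 168 and 108 CPM in FcR2b-/- and 14.9, 12.3, 20.9 and 18.4 CPM in WT kidney (2.94 ± 0.17). Albumin, also a liver product, changed by -3.07. Complement genes were higher in 14 of 20 measured cases and lower in 0, with a median of 1.73. C3, the protein on which the complement pathways meet, had 1042, 580, 903 and 701 CPM in FcR2b-/- and 28.1, 31, 142 and 68.2 CPM in WT kidney (3.84 ± 0.64; limma adjusted p = 0.000148).

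All 21 measured of 23 macrophage markers rose, with a median of 2.80, and 0 fell. Their summed level was 3738, 1448, 3549 and 1873 CPM in FcR2b-/- and 298, 342, 369 and 319 CPM in WT kidney. Lyz2, the lysozyme of myeloid cells, had 1102, 340, 995 and 598 CPM in FcR2b-/- and 32.7, 49.5, 47.6 and 33.2 CPM in WT kidney (4.07 ± 0.54; limma adjusted p = 1.88e-05). The order of the FcR2b-/- libraries was that of the summed markers, which is a description and no separate support. Csf1r, the receptor for the growth factor that maintains macrophages, had 224, 103, 204 and 118 CPM in FcR2b-/- and 77.3, 77.2, 92.5 and 79 CPM in WT kidney and rose by 0.91 ± 0.21. Of 14 measured genes of lipid-laden macrophages 12 rose and 1 fell. Trem2, a lipid-sensing receptor, had 25.3, 14.3, 35.6 and 24.6 CPM in FcR2b-/- and 0.412 to 0.801 CPM in WT kidney (3.95 ± 0.36), and Gpnmb, a glycoprotein of lysosome-rich macrophages, had 36.6, 11.4, 66.4 and 28.8 CPM in FcR2b-/- and 0.42 to 1.18 CPM in WT kidney (4.24 ± 0.49). The fall was Lpl, lipoprotein lipase, at -1.37.

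Of 5 measured dendritic cell genes 1 was called higher, the integrin Itgax at 1.63, with a list median of 0.37. The part of macrophage markers in the changes of the lists that follow was not tested. The Fc gamma receptor list, which holds receptors and their signalling partners, rose in 9 of 11 cases and fell in 0, with a median of 1.59. Fcgr3, an activating IgG receptor, had 53.3, 28.9, 51.1 and 29.5 CPM in FcR2b-/- and 4.42, 4.77, 4.38 and 4.13 CPM in WT kidney (2.89 ± 0.34). Fcgr1, the high-affinity receptor, had 35.8, 10.5, 26.4 and 13.6 CPM in FcR2b-/- and 1.83 to 2.64 CPM in WT kidney (2.67 ± 0.41). Fcgr4, another activating receptor, had 16.5, 12, 11.1 and 6.51 CPM in FcR2b-/- and 2.24 to 2.83 CPM in WT kidney, and its call (1.72 ± 0.50; limma adjusted p = 0.00865) was not made by voom (adjusted p = 0.0619). Toll-like receptor genes rose in 10 of 14 measured cases and monocyte and neutrophil genes in 7 of 8, with medians of 1.38 and 2.16. In the phagocyte oxidase list 5 of 7 rose (Cybb, Ncf1, Ncf4 and Rac2 among them), while Nox4, the oxidase of tubule cells, fell by 1.47. Of 24 lysosomal genes, which macrophages and tubules share, 14 rose and 3 fell (Lamp2, Lipa and Neu1).

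Lymphocyte markers were less uniform. Among 9 measured of 22 T and NK cell genes 2 were called higher, with a median of 0.84, and their summed level was 40.1, 18.7, 51 and 16.8 CPM in FcR2b-/- and 10.1, 12.5, 15.2 and 11.6 CPM in WT kidney. The called ones were Cd4 and the T cell kinase Lck. A fit on the 2 groups alone called 5, and 0 were called by voom or without FcR2bko_21, FcR2bko_591, WT_346, WT_356 or WT_550. Of 15 measured B and plasma cell genes 3 were called higher, with a median of 1.45, namely Sdc1, a proteoglycan of plasma cells that epithelium also carries, at 2.19, the receptor Tnfrsf13b at 1.52 and the factor Irf4 at 1.45. Immunoglobulin transcripts spanned a wide range within FcR2b-/- kidney. Igkc, the kappa light chain constant region, had 2918, 604, 72.7 and 4.07 CPM in FcR2b-/- and 92.3, 62.5, 76.9 and 26.9 CPM in WT kidney (1.42 ± 1.43; limma adjusted p = 0.403). FcR2bko_21 was the highest and FcR2bko_594 the lowest of all 8 libraries. Ighg1, an IgG1 heavy chain, had 661, 134, 2.84 and 0.334 CPM in FcR2b-/- and 0.471, 1, 5.49 and 0.209 CPM in WT kidney (3.57 ± 1.62; limma adjusted p = 0.0695). Without FcR2bko_594, 9 of the 15 genes were higher. Similar copies can share immunoglobulin reads, so these values are uncertain.

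Chemokines and cytokines rose broadly. Among chemokine ligands 12 of 17 measured rose and 0 fell, with a median of 1.49, and among receptors 5 of 7 rose. Cxcl1, which attracts neutrophils, had 9.27, 10.3, 13.4 and 12.3 CPM in FcR2b-/- and 0.176, 0.758, 0.258 and 0.239 CPM in WT kidney (3.19 ± 0.20; limma adjusted p = 4.25e-08). Ccl9, a ligand for myeloid cells in mice, had 38.7, 21.7, 28.5 and 30.8 CPM in FcR2b-/- and 1.66 to 2.32 CPM in WT kidney (3.37 ± 0.37). Of 14 measured genes of the interleukin 1 and 6 families 11 rose and 2 fell, the falls being Lifr, the receptor chain for Lif, at -0.48 and Il11ra1 at -0.25, with 1 fall without FcR2bko_21, FcR2bko_591, WT_346 or WT_388. Lif, a cytokine of the interleukin 6 family, had 16, 9.86, 25 and 9.8 CPM in FcR2b-/- and 0.42 to 0.766 CPM in WT kidney (3.26 ± 0.36). Socs3, the feedback inhibitor of these receptors, had 55.8, 37.4, 68.5 and 37.7 CPM in FcR2b-/- and 3.25 to 4.34 CPM in WT kidney (3.38 ± 0.26).

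TNF and NF-kB genes rose in 19 of 21 measured cases and fell in 0, with a median of 1.45. Tnf itself had 3.61, 1.16, 4.51 and 3.93 CPM in FcR2b-/- and 0.382, 0.332, 0.343 and 0.239 CPM in WT kidney (1.62 ± 0.36; limma adjusted p = 0.00137), lowest of the FcR2b-/- group in FcR2bko_398. Tnfaip3, the A20 protein that ends NF-kB signalling, had 33.1, 24.2, 28.9 and 25.1 CPM in FcR2b-/- and 8.02, 9.78, 8.76 and 7.9 CPM in WT kidney (1.58 ± 0.22). Nfkbiz, a nuclear partner of NF-kB, had 29.5, 21.4, 39.6 and 26.6 CPM in FcR2b-/- and 4.26 to 6.96 CPM in WT kidney (2.22 ± 0.23). Of the 6 genes of iRhom and ADAM17, the machinery that sheds TNF and EGF receptor ligands, 5 rose and 1 fell. Rhbdf1, the paralogue of Rhbdf2, had 60.8, 59.7, 67.2 and 66.7 CPM in FcR2b-/- and 40.3, 41.2, 36.4 and 45.2 CPM in WT kidney (0.63 ± 0.10). Timp3, which inhibits ADAM17, had 46.5, 57.2, 53.1 and 31.7 CPM in FcR2b-/- and 143, 126, 136 and 114 CPM in WT kidney (-1.47 ± 0.16). Among EGF receptor ligands and receptors 2 rose and 3 fell of 9, with Hbegf at 27.9, 37.7, 34.9 and 27 CPM in FcR2b-/- and 9.64, 14.7, 10.7 and 9.34 CPM in WT kidney (1.45 ± 0.17). Their median of -0.15 turned to 0.06 under total-read scaling.

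Immediate early and ERK feedback genes, which respond within minutes to growth factors and also to tissue handling, rose in 28 of 32 measured cases, with a median of 1.27. The single fall, of the chaperone partner Dnajb1 at -0.30, was not called without FcR2bko_21, FcR2bko_398, WT_346, WT_356 or WT_550. Egr1, a zinc finger factor of this class, had 47.5, 32, 45.6 and 31.1 CPM in FcR2b-/- and 3.04, 5.83, 3.38 and 3.55 CPM in WT kidney (3.02 ± 0.34; limma adjusted p = 4.81e-06). WT_356 was the highest WT library there and over the list, with a mean of 3.85 against 3.58 to 3.62. Cell cycle genes rose in 20 of 23 measured cases and fell in 1, thymidylate synthase Tyms at -0.51, with a median of 1.04. Cell death and inflammasome genes rose in 11 of 14 and p53 and senescence genes in 10 of 14, with medians of 1.26 and 0.75. Cd44, a hyaluronan receptor of activated cells, had 52.7, 23.3, 44.2 and 34 CPM in FcR2b-/- and 2.83 to 4.19 CPM in WT kidney (3.10 ± 0.45).

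Interferon genes did not move as one set. Of 31 measured type I interferon stimulated genes 22 rose and 2 fell, with a median of 0.95, and 12 rose without FcR2bko_21. The falls were the antiviral gene Rsad2 at -0.50 and the nucleotide kinase Cmpk2 at -0.62. Without FcR2bko_398, FcR2bko_594 or WT_346, 1 gene fell, and under total-read scaling 24 rose and 0 fell. Irf7, the master factor of the response, had 72.5, 21.8, 55.8 and 51 CPM in FcR2b-/- and 10.6, 16.8, 16.9 and 13.7 CPM in WT kidney (1.63 ± 0.38; limma adjusted p = 0.00211). The interferon-induced GTPases, which guard against intracellular pathogens, had 0 members higher and 1 lower of 10, with a median of 0.34, and 3 were higher in a fit of the 2 groups alone. The lower one was Gbp3, at 11.2, 4.12, 6.16 and 4.34 CPM in FcR2b-/- and 12, 16.9, 14.2 and 19 CPM in WT kidney (-1.22 ± 0.46; limma adjusted p = 0.0319), and alternatives that lost its call gave adjusted p of 0.051 to 0.0938. MHC class II genes rose in 7 of 9 measured cases, with a median of 1.75. MHC class I and immunoproteasome genes rose in 9 of 16, with a median of 1.03, and the count was 5 without WT_346 and 4 without FcR2bko_21.

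Stress programmes differed between libraries. NRF2 targets, which answer oxidative stress, rose in 9 of 17 measured cases and fell in 3 (Gclm, Osgin1 and Me1), with a median of 0.27. Hmox1, haem oxygenase, had 101, 481, 114 and 110 CPM in FcR2b-/- and 25.2, 18.3, 24.9 and 29 CPM in WT kidney (2.66 ± 0.43), with FcR2bko_398 far above the rest. Nqo1, a quinone reductase, had 56.4, 200, 126 and 299 CPM in FcR2b-/- and 60.1, 48.4, 62.8 and 45.1 CPM in WT kidney (1.41 ± 0.34; limma adjusted p = 0.00272), with FcR2bko_21 inside the WT range. Cbr3, a carbonyl reductase, had 16.4, 43.9, 57.8 and 135 CPM in FcR2b-/- and 4.34 to 6.16 CPM in WT kidney (3.05 ± 0.44). Both genes were lowest in FcR2bko_21 and highest in FcR2bko_594 among the FcR2b-/- libraries. Of 13 measured ER stress and ATF4 genes 3 rose and 1 fell, with a median of -0.03 that became 0.18 under total-read scaling, and 4 fell without FcR2bko_21. Of 18 glycolysis genes 5 rose and 4 fell, or 9 and 3 under total-read scaling. The hexokinases Hk2 and Hk3 stood at 2.24 and 1.89 and the lactate exporter Slc16a3 at 1.92, while Pfkm, Gapdh, Pgk1 and Pgam1 stood between -0.94 and -0.42. Hk3 was not called by voom (adjusted p = 0.0853).

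Of 15 sterol synthesis genes 8 fell and 1 rose, with a median of -0.37, and 5 fell without WT_346 or WT_388 or under total-read scaling. The rise, of the squalene epoxidase Sqle at 0.37, was not called without FcR2bko_398, FcR2bko_594 or any single WT library. Cyp51, a demethylase of the cholesterol pathway, had 99.8, 110, 85.9 and 121 CPM in FcR2b-/- and 448, 485, 461 and 443 CPM in WT kidney (-2.14 ± 0.10; limma adjusted p = 1.94e-09). Elovl6, which lengthens fatty acids, had 52.2, 53.6, 51.4 and 49.6 CPM in FcR2b-/- and 154, 150, 179 and 152 CPM in WT kidney (-1.60 ± 0.07). The FcR2b-/- libraries were close to each other in both genes. Slc9a8, a sodium-proton exchanger, had 75.7, 54.7, 48.9 and 55.2 CPM in FcR2b-/- and 520, 642, 649 and 628 CPM in WT kidney (-3.37 ± 0.13), and Ccdc170, a coiled-coil protein, had 1.08, 0.565, 0.168 and 0.266 CPM in FcR2b-/- and 27.6, 33.9, 32.9 and 27.5 CPM in WT kidney (-4.40 ± 0.15; limma adjusted p = 2.09e-10). Cytochrome P450 genes were evenly divided, 11 higher and 11 lower of 34.

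The start regions of genes with changes of at least 1 were searched for short motifs, since members of the injury, NF-kB and proximal tubule lists moved together. RefSeq promoters of 300 bases on GRCm38.p6, 250 before the gene start and 50 after it, were matched for 9286 of the 12315 genes. Each motif was searched on both strands. The AP-1 letters TGANTCA occurred in 9.24% of promoters of genes higher in FcR2b-/-, 4.54% of lower genes and 4.95% of all promoters. The NF-kB letters GGAANNTCC occurred in 5.87% of higher, 2.95% of lower and 4.71% of all promoters. The HNF1 letters GTTAATNAT occurred in 0.499% of higher, 2.95% of lower and 0.56% of all promoters, and the HNF4 letters CAAAGTCCA in 0.999%, 1.13% and 0.409%. For STAT, TTCNNNGAA, the shares were 9.11% of higher, 7.26% of lower and 6.96% of all promoters, for ISRE, GAAANNGAA, 9.74%, 6.8% and 7.19%, and for E2F, TTTNGCGC, 2.25%, 1.36% and 2.38%. Median GC content was 58.7% in higher, 56.7% in lower and 61% in all promoters. The TTCNNNGAA and GAAANNGAA letters can overlap. A match describes letters only and is neither a site nor a cause.

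The following 4 promoters are shown because their genes stand for the chemokine, NF-kB feedback, injury protease and gluconeogenic changes and each holds a match. Capitals mark every match of the 7 motifs. Cxcl1 (chr5:90890995-90891294, plus strand) has GGAATTTCC starting at -70 from the gene start, and Tnfaip3 (chr10:19015361-19015660, minus strand) has the same 9 letters at -24 and the AP-1 letters TGACTCA at -136. Mmp7 (chr9:7691840-7692139, plus strand) has TGAGTCA at -63. G6pc (chr11:101367466-101367765, plus strand), the glucose-releasing phosphatase, has GTTAATAAT at -221; it had 298, 338, 135 and 270 CPM in FcR2b-/- and 924, 499, 905 and 759 CPM in WT kidney (-1.60 ± 0.32; limma adjusted p = 0.000556).
Cxcl1: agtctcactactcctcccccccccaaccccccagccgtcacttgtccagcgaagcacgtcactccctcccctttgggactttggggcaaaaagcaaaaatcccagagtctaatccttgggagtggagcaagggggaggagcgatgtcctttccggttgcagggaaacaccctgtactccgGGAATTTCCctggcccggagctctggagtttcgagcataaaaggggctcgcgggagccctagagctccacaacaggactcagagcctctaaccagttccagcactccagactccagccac
Tnfaip3: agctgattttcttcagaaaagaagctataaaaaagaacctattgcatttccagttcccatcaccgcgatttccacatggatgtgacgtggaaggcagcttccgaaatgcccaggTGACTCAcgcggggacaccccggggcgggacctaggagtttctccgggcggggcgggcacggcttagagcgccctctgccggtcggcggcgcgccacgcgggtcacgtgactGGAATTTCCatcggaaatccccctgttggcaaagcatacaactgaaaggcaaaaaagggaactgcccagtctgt
Mmp7: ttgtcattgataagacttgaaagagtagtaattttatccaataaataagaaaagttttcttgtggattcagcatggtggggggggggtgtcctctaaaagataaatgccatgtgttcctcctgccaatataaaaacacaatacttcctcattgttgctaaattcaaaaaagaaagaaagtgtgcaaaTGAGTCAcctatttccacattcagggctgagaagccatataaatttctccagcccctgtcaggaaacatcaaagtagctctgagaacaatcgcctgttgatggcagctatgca
G6pc: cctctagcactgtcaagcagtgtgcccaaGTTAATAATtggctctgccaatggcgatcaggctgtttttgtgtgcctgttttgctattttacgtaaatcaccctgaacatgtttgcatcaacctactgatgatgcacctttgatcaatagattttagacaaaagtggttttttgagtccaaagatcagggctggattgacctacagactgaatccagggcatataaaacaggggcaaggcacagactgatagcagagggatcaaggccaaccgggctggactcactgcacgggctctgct

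The FcR2b-/- libraries varied more among themselves than the WT libraries. The median SD of log2(CPM+1) over genes was 0.196 in FcR2b-/- and 0.0908 in WT kidney, and it was larger in FcR2b-/- for 10408 genes (84.5%). Taken one at a time against the WT mean, the 1067 genes with rises of at least 1 had a median change of 1.80 in FcR2bko_21, 1.26 in FcR2bko_398, 1.81 in FcR2bko_591 and 1.35 in FcR2bko_594. The 589 genes with falls of at least 1 had medians of -1.51, -1.06, -1.67 and -1.31 in the same order. These genes were chosen on the group means of the same libraries, so the shared sign of the medians is a description. Of the rises 1047 were above the WT mean in FcR2bko_594 and 1067 in each other FcR2b-/- library, and of the falls 586 were below it in FcR2bko_398 and 588 in FcR2bko_594. FcR2bko_398 was the lowest FcR2b-/- library in 537 of the 1067 rises, more often than any other. Hpd, a tyrosine-degrading enzyme, spread widely, with 0.544, 43.6, 3.14 and 5.32 CPM in FcR2b-/- and 135, 85.7, 142 and 88.5 CPM in WT kidney (-4.09 ± 0.71). Olfm4, a secreted glycoprotein, had 10.1, 10.3, 52.4 and 6.14 CPM in FcR2b-/- and 4.77 to 5.95 CPM in WT kidney, and its call (1.25 ± 0.43; limma adjusted p = 0.0203) was not made in a fit of the 2 groups alone (0.0735).

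**Figure D4:**
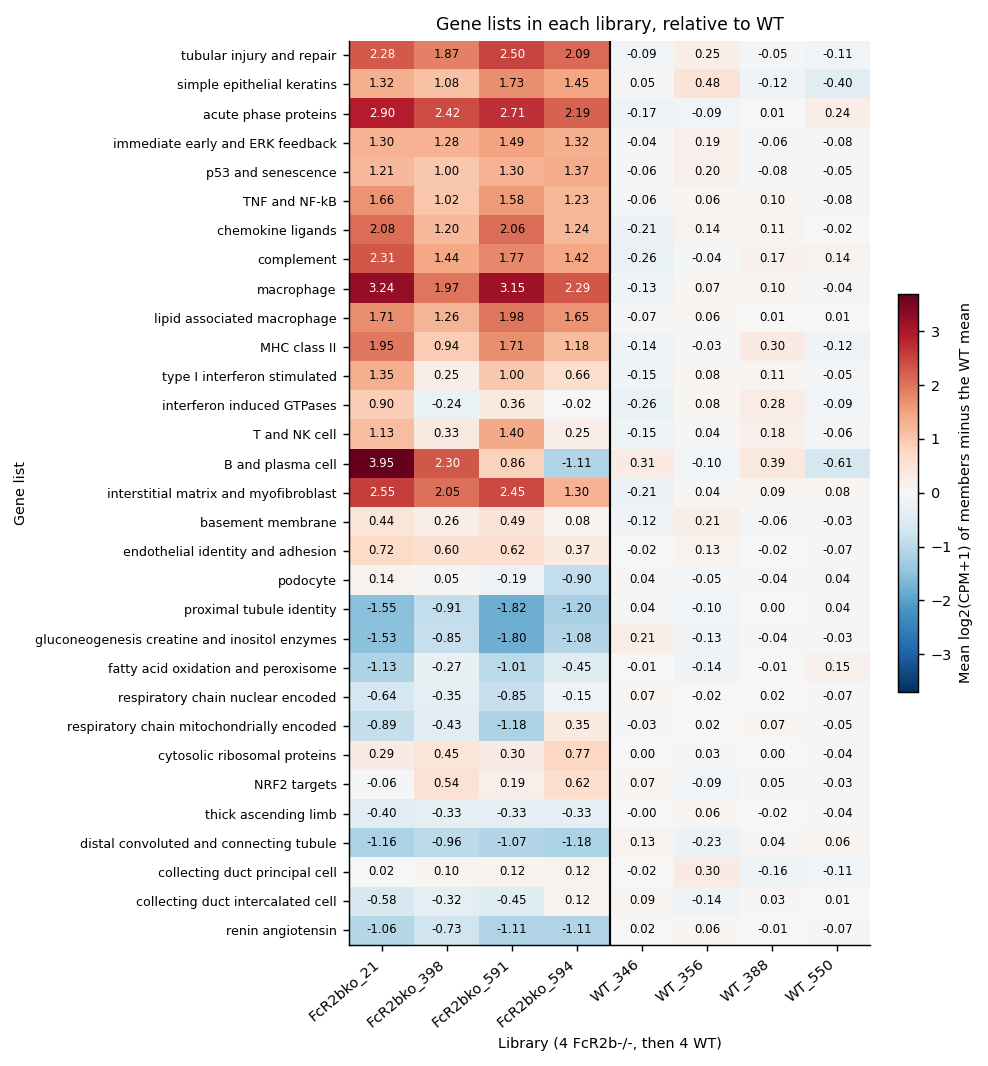
Mean log2(CPM+1) over the members of each list minus the mean of the WT libraries, with the 4 FcR2b-/- libraries left of the 4 WT libraries; red is higher and blue lower. FcR2bko_398 is paler than the others in the macrophage list, FcR2bko_594 is low in the podocyte and B and plasma cell lists, and WT_356 is redder than other WT libraries in the injury and early gene lists.

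The same allele was then read on a background without iRhom2. Between FcR2b-/- Rhbdf2-/- and Rhbdf2-/- kidney 431 genes changed (3.5%), 286 higher (2.32%) and 145 lower (1.18%). This count rested on single libraries, from 27 without Rhbdf2-/- library iR2ko_351 or double-mutant library iR2ko_370 to 1566 without double-mutant library iR2ko_65, and voom gave 78. It was 35 and 51 without Rhbdf2-/- libraries iR2ko_334 and iR2ko_352, 256 without iR2ko_355, and 71 and 31 without double-mutant libraries iR2ko_348 and iR2ko_367. The change at FcR2b differed with the Rhbdf2 genotype in 3418 genes (27.8%; interaction term, limma adjusted p below 0.05). The 1067 genes with rises of at least 1 had a median of 1.53 in FcR2b-/- against WT and 0.64 in FcR2b-/- Rhbdf2-/- against Rhbdf2-/- kidney, and the 589 with falls had -1.35 and -0.28. The genes were chosen on the first comparison, so its medians are a description.

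Single genes separated the comparisons to different degrees. Lcn2 had 57, 16.2, 14.2 and 5.51 CPM in FcR2b-/- Rhbdf2-/- and 2.59, 2.58, 2.31 and 15.5 CPM in Rhbdf2-/- kidney, a change of 1.78 ± 0.62 (limma adjusted p = 0.106), and its interaction was 4.95 ± 0.88 (adjusted p = 0.00123). Kap had 4583, 8581, 6728 and 5522 CPM in FcR2b-/- Rhbdf2-/- and 10757, 5036, 10030 and 8387 CPM in Rhbdf2-/- kidney, with overlapping groups (-0.41 ± 0.30) and an interaction of -4.44 ± 0.42 (limma adjusted p = 2.23e-05). Cyp51 had 437, 375, 432 and 433 CPM in FcR2b-/- Rhbdf2-/- and 448, 421, 491 and 402 CPM in Rhbdf2-/- kidney. Its change was -0.07 ± 0.10 and its interaction -2.07 ± 0.13 (limma adjusted p = 6.06e-07). Elovl6 likewise had an interaction of -1.49 ± 0.09, Ccdc170 of -3.79 ± 0.22 and Slc9a8 of -2.67 ± 0.19. Among genes that rose in FcR2b-/- kidney, Rgs5, a regulator of G protein signalling in pericytes, had an interaction of 1.39 ± 0.12 and Cxcl1 of 2.78 ± 0.28.

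For other genes the interaction missed the threshold. Tnf had 3.05, 4.16, 3.16 and 0.347 CPM in FcR2b-/- Rhbdf2-/- and 0.183, 0.266, 0.556 and 0.435 CPM in Rhbdf2-/- kidney (1.28 ± 0.36; limma adjusted p = 0.058), with an interaction of 0.33 ± 0.51 (adjusted p = 0.653). Irf7 had an interaction of 0.32 ± 0.54 (adjusted p = 0.688) and Lyz2 of 1.41 ± 0.76 (adjusted p = 0.181), with changes of 4.07 in FcR2b-/- against WT and 2.66 in FcR2b-/- Rhbdf2-/- against Rhbdf2-/- kidney for Lyz2. A missed threshold does not show that the changes were alike. By list, the interaction called 23 of 32 immediate early genes, 20 of 25 injury genes and 48 of 71 ribosomal protein genes higher and 14 of 29 proximal tubule genes lower, beside 13.9% of all genes in each direction. It called 2 of 21 macrophage genes higher, 3 of 31 interferon stimulated genes lower and 0 of 9 MHC class II genes. List medians in FcR2b-/- Rhbdf2-/- against Rhbdf2-/- kidney were 1.76 for macrophage, 1.87 for MHC class II, 1.09 for interferon stimulated, 0.15 for immediate early and -0.14 for keratin genes. Called higher there were 16 of 21 macrophage, 1 of 9 MHC class II and 13 of 31 interferon stimulated genes. Over all genes the share was 2.32%. Double-mutant library iR2ko_65 had a mean log2(CPM+1) of 3.78 over macrophage genes. The other double-mutant libraries had 5.18 to 5.77 and Rhbdf2-/- libraries 2.94 to 3.78. Over MHC class II genes iR2ko_65 had 4.64, the others 6.27 to 8.36 and Rhbdf2-/- libraries 4.37 to 5.32.

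**Figure D5:**
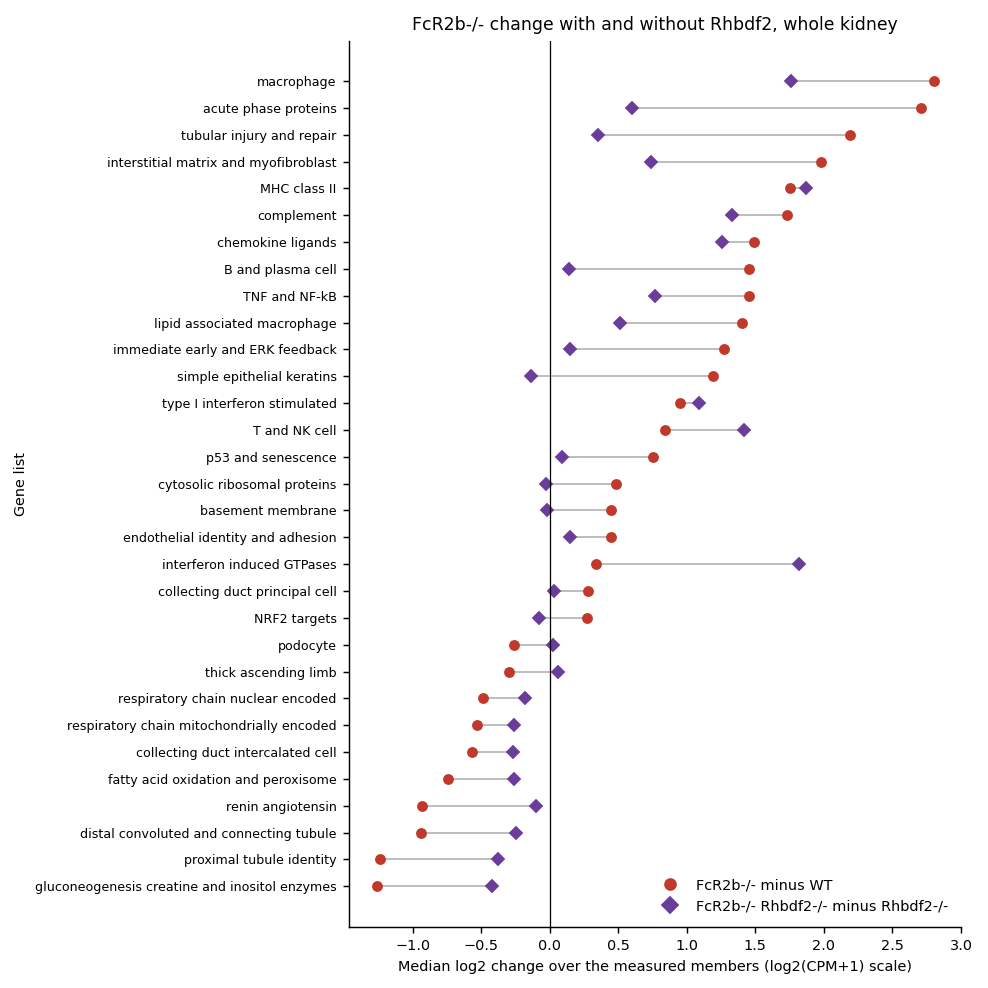
For each gene list, the median log2 change in FcR2b-/- against WT kidney and in FcR2b-/- Rhbdf2-/- against Rhbdf2-/- kidney. Injury (2.19 and 0.35), keratin (1.19 and -0.14) and immediate early genes (1.27 and 0.15) differ widely between the comparisons, and MHC class II (1.75 and 1.87) and interferon stimulated genes (0.95 and 1.09) differ little, while interferon-induced GTPases stand at 0.34 and 1.82. The double-mutant medians include library iR2ko_65, whose mean over interferon stimulated genes was 3.87. The other double-mutant libraries had 4.96 to 5.06 and Rhbdf2-/- libraries 3.25 to 3.98. Its MHC class II and GTPase means also lay in the Rhbdf2-/- range.

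Macrophages sorted from FcR2b-/- and WT kidneys gave a further view of the same genotypes, in a table normalized separately, so values are set side by side without a test between tissues. There 5551 of 10523 genes changed (52.8%), 2547 higher (24.2%) and 3004 lower (28.5%). Of 9884 genes listed in both tissues 5948 were called in kidney, 5135 in macrophages and 3124 in both. The shared calls were 52.5% of those in kidney, near the 52.8% of all macrophage genes called. They were 60.8% of those in macrophages, near the 60.3% of all kidney genes called. The number shared is therefore no sign of a link between the tissues. Of the 3124 genes 2061 had the same direction and 1063 the opposite one. Lipid-laden macrophage genes rose in 15 of 15 cases in FcR2b-/- macrophages, with a median of 2.86. Injury genes rose in 14 of 20 there, and acute phase genes in 6 of 7. MHC class II genes fell in 9 of 10 cases there, with a median of -1.35, against a median of 1.75 in whole kidney. Interferon stimulated genes fell in 13 of 33 and rose in 0, with a median of -0.65, and interferon-induced GTPases fell in 8 of 12. Tubule markers were present in the sorted cells too and fell there, with 10 of 25 proximal tubule genes and 13 of 14 distal tubule genes lower in FcR2b-/- macrophages.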

How the data were processed

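RNA sequencing values of 8 whole-kidney libraries, 4 labelled FcR2b-/- and 4 labelled WT, were compared, with 8 further kidney libraries in the same fit. Groups follow the genotype labels. The authors deposited 1 column of log2 CPM per library, per the file headers. They also deposited log2 fold changes, p-values, FDR and gene lengths, per the file headers, which were not used in a test. Builds mm10 and GRCm38 stand in the submitters' processing notes. No source used here gives the aligner, counting program, annotation or use of strand, so antisense, overlapping and near-identical genes are uncertain. The table held 0 unmapped sample columns, and 0 library pairs were identical.

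CPM was recovered as the antilog. Low values were whole multiples of 1 read in 100% of cases (735 kidney values, tolerance 0.1 read), which gave the reads per library. A read was worth 0.0232 to 0.034 CPM in FcR2b-/- and 0.0286 to 0.0304 CPM in WT libraries, and floors cover counting error only. log2(CPM+1) was fitted with limma-trend (limma 3.58.1, R 4.3.3) over all 4 kidney genotypes, and a gene was called where its Benjamini-Hochberg adjusted p over all 12315 genes was below 0.05. The design foresaw counts or normalized values, and the test for normalized values was used. Errors are limma's SE (n = 4 in each kidney group, n = 3 in each macrophage group). voom on the recovered reads called 7407 genes. By the authors' deposited results 7405 genes were called, of which 7274 were called here with the same sign. On simulated data for FcR2b-/- against WT kidney, run on 12315 genes, 97% of 200 changed genes and 0.165% of unchanged genes were called. The simulation gave every group the same spread and left the other groups at the WT mean. In the data the median SD was 0.196 in FcR2b-/- and 0.0908 in WT libraries, and far more genes were called. The simulated rates therefore need not hold for this comparison.

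The members and gene lists were chosen with earlier results of these data known, so no count is independent support. Named genes were Fcgr2b, Rhbdf2, the first 4 members of each list, up to 4 further called members with the largest change, among called genes with no overlap and a mean log2 CPM from 1 upwards the 15 largest rises, the 15 largest falls and the 8 with the largest SD among FcR2b-/- libraries, and the 8 smallest interaction p-values. Genes outside this rule, among them Slc13a1, Trpv5, Stk39, Igkc, Ighg1, Itgb6 and other members named as exceptions to their list, were chosen after their values were seen. The alternatives were other pseudocounts, a level filter, voom, median centring, total-read scaling, a fit on 2 groups and leaving out each library. A few genes chosen this way are left out of the text.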

Additional observations from a re-analysis of the deposited data

Results flagged for a closer look

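In 14 of 230 groups of 4 libraries one library lay far from the other 3, relative to the range of the group. This is near the rate of about 1 in 20 that chance gives, so the flags are a description. A flagged gap can be small in size. WT_356 was the flagged library in 5 of the 14 groups. Its mean log2(CPM+1) was 5.13 over tubular injury genes (others 4.77 to 4.82), 4.53 over p53 genes (4.25 to 4.28) and 3.85 over immediate early genes (3.58 to 3.62), its Cxcl1 was 0.758 CPM (0.176 to 0.258) and its Slc12a3 was 612 CPM (959 to 993). WT_346 had Gatm at 2976 CPM (2209 to 2258), Fcgr4 at 2.24 CPM (2.74 to 2.83) and Slc9a8 at 520 CPM (628 to 649). WT_388 had Elovl6 at 179 CPM (150 to 154).

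Among FcR2b-/- libraries, FcR2bko_21 had a mean of 6.93 over thick ascending limb genes, against 7.00 in each of the others, FcR2bko_398 had 5.63 over renin-angiotensin genes (5.25 to 5.30) and Hmox1 at 481 CPM (101 to 114), FcR2bko_591 had 5.15 over immediate early genes (4.95 to 4.98), and FcR2bko_594 had Col4a3 at 28.6 CPM (65.6 to 67.2). The interaction term differed from 0 in 3418 genes (limma, adjusted p below 0.05). For these genes the change with the FcR2b label differed between samples labelled with and without Rhbdf2, and lane cannot be told apart from genotype.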

How the results depend on the processing

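The count of genes changed between FcR2b-/- and WT kidney was 6613 to 7651 when single libraries were left out, 7421 with a pseudocount of 0.5, 7419 on the deposited log2 CPM, 7488 with centred libraries, 6667 with the 2 groups alone and 7512 with total-read scaling. A filter at a mean of 1 CPM removed no gene. The interaction count was 2738 to 3951 and the macrophage count 4583 to 5672 without single libraries. The count for FcR2b-/- Rhbdf2-/- against Rhbdf2-/- kidney was the least stable, at 27 to 1566 without single libraries, 78 by voom and 139 with total-read scaling, and the cause was not tested. Of 382 named genes 318 stayed on their side of the threshold under every alternative and none reversed. The difference in mitochondrial share was -3.83 to -0.945 percentage points without single libraries. No paired analysis was possible because the titles give each library its own number. Depth limits genes near the 3-read floor, such as Pvalb in FcR2b-/- and Mmp7 in WT kidney.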
